A study of Nothobranchius furzeri with 15 samples.

Results

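The genes of 4 liver carrier proteins, each 1 of the 18311 entries of a killifish transcript catalogue, were followed through 3 organs of the annual killifish Nothobranchius furzeri. The entries were chosen by the zebrafish gene identifier deposited beside each one. They were fabp10a (Nofu_gene_3_0006112, ENSDARG00000038439), tfa (Nofu_gene_3_0017835, ENSDARG00000016771), cp (Nofu_gene_3_0004065, ENSDARG00000010312) and rbp4 (Nofu_gene_3_0014385, ENSDARG00000044684). The choice named 5 identifiers, and the one for ttr (ENSDARG00000037191) stood beside 0 entries of the catalogue, so ttr is not analysed here. Each of the 4 identifiers belonged to 1 entry, each entry was a best bidirectional hit between killifish and zebrafish, and all 4 passed the filter on low counts. The gene names are those attached to the identifiers when the entries were chosen, since the deposited tables give identifiers only.

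Carrier proteins move small molecules that are poorly soluble or reactive through blood or cytoplasm, and in vertebrates the hepatocyte makes most of those found in plasma. Transferrin, the product of tfa, carries iron in plasma. Ceruloplasmin, the product of cp, is a copper-containing ferroxidase that oxidises iron so that transferrin can bind it. Retinol binding protein, the product of rbp4, carries vitamin A from the liver, in mammals in a complex with transthyretin, the product of ttr. The product of fabp10a differs from these in staying inside the cell, where it binds bile acids and fatty acids, and in zebrafish its promoter is widely used to drive transgenes in hepatocytes. In mammals, transferrin and ceruloplasmin are also made in the brain, by glial cells and the choroid plexus.

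RNA was sequenced from liver, brain and skin, with 5 libraries of each, from fish of the short-lived strain GRZ at 12 weeks of age, and no group was treated. Liver and brain libraries carry the numbers 10, 11, 13, 14 and 15 in their titles, and skin libraries the numbers 5, 6, 7, 13 and 14. The series information calls the 5 samples of a tissue biological replicates. Whole organs were lysed, so fewer cells of a type and less RNA per cell cannot be told apart in any level below.

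Libraries held 17.7 to 30.8 M counts. Levels are given in counts-per-million (CPM) after TMM scaling, a correction for differences in RNA composition, whose factor averaged 0.598 in liver, 1.68 in brain and 1.01 in skin. Without that scaling the median log2 fold change over all entries tested was -1.49 for liver over brain, -0.78 for liver over skin and 0.76 for brain over skin, and the log2 fold changes of the 4 carrier entries moved by about as much. Skin 7 stood apart from the other skin libraries, with 371 entries at least 4-fold above their mean, where each other skin library had 2 to 19. Such counts, here and for livers and brains, compare log2(CPM + 1) with its mean over the other libraries of the tissue. Among livers, liver 15 had 192 and liver 14 had 127 such entries, where the other livers had 7 to 87. Leaving out skin 7 and liver 14 together kept every call and direction among the 4 carrier entries and moved no log2 fold change by more than 0.10. Leaving out liver 15 alone also kept every call and direction, with larger shifts. The log2 fold change of tfa then went from 4.74 to 4.93 for liver over brain and from 10.89 to 11.07 for liver over skin.

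The 4 entries did not share 1 pattern. Transcripts of fabp10a were abundant in liver and far lower in brain and skin. Those of tfa and cp were abundant in liver, intermediate in brain and scarce in skin. The rbp4 entry was low in liver and skin and divided among the brain libraries, with its highest mean in brain. This goes against the description of this entry as a liver carrier. In deposited RPKM (reads per kilobase of entry and per-million counted reads), the scale on which genes can be compared, liver held 3947 ± 713 of fabp10a, 3667 ± 989 of tfa, 1154 ± 243 of cp and 2.79 ± 0.997 of rbp4 (SD, n = 5). These values depend on the entry lengths, 620 bases for fabp10a and 6077 for tfa, which were not checked against a sequence. By RPKM, fabp10a ranked between 11 and 24 among the catalogue entries of each liver library and tfa between 12 and 34. There cp ranked between 67 and 118 and rbp4 between 5933 and 9084. In brain libraries rbp4 ranked between 3136 and 14449, with brain 11, 13 and 14 at 3714, 3377 and 3136. Skin libraries had rbp4 between ranks 10691 and 12320. For fabp10a the ranks were 2985 to 11159 in brain and 5926 to 10848 in skin.

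**Figure D1:**
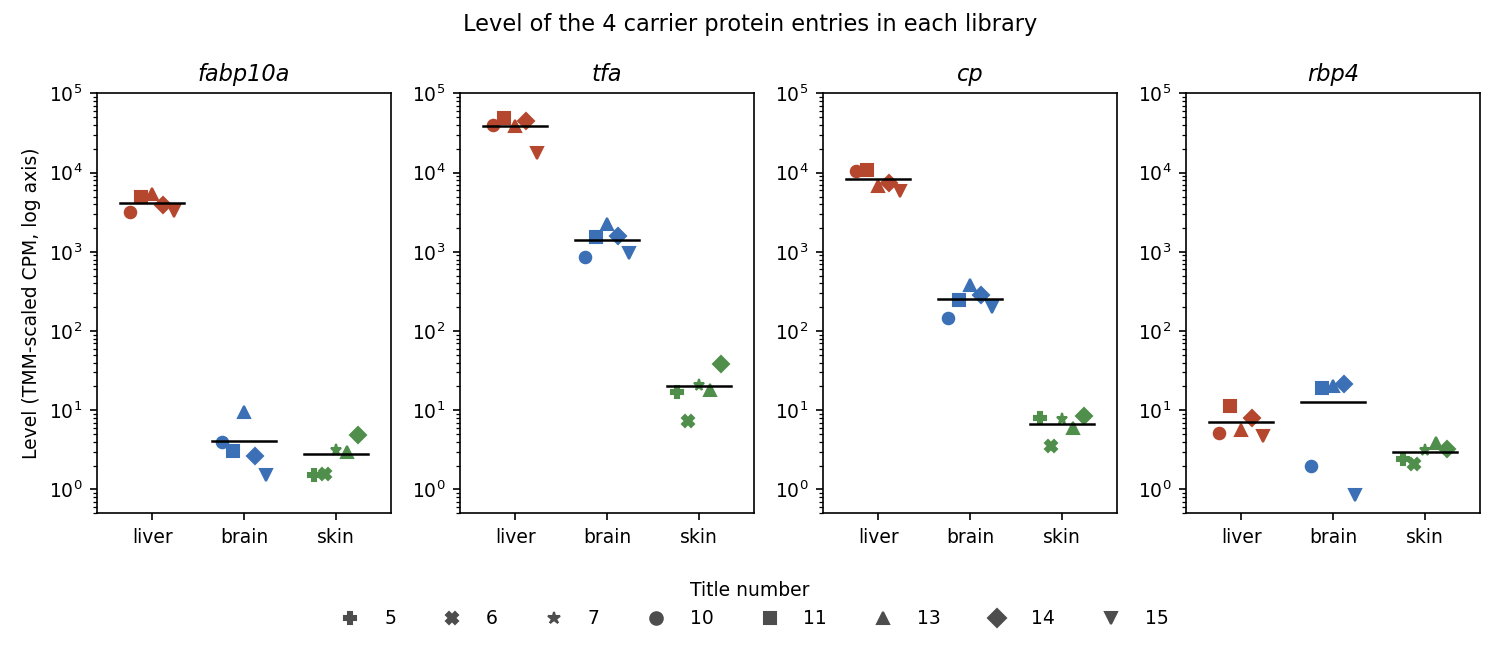
Level of the 4 entries in each library, in TMM-scaled CPM on a log axis, for liver, brain and skin (5 libraries each; horizontal lines are means, symbols give the title number). Liver libraries lie above all others for fabp10a, tfa and cp, while for rbp4 the brain libraries run from 0.858 to 21.5 CPM and span the range of liver and skin.

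The intracellular carrier fabp10a was abundant in liver and at or below 9.53 CPM in every brain and skin library. Liver 10, 11, 13, 14 and 15 had 3176, 4955, 5361, 3965 and 3301 CPM. The brain libraries with the same numbers had 4.01, 3.01, 9.53, 2.64 and 1.53 CPM, and skin 5, 6, 7, 13 and 14 had 1.52, 1.55, 3.17, 3.00 and 4.94 CPM. No liver library came near any brain or skin library, while the ranges of brain and skin overlapped. The lowest counts were 28 in skin 5 (95% exact Poisson interval 18.6 to 40.5) and 57 in brain 15 (43.2 to 73.9), intervals that cover counting error only.

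The mean of fabp10a was 4152 ± 977 CPM in liver and 4.15 ± 3.14 CPM in brain (SD, n = 5). Liver over brain gave a log2 fold change of 9.97 ± 0.62 (SE), with an adjusted p of 3.78e-10 by edgeR's quasi-likelihood test, and the log2 fold changes below carry their SE in the same way. Skin averaged 2.84 ± 1.41 CPM, and liver over skin was 10.51 ± 0.63 (edgeR, adjusted p = 6.46e-10). The difference between brain and skin, 0.54 ± 0.43 on the log2 scale for brain over skin, did not pass the test (edgeR, adjusted p = 0.278). That value was 0.02 without brain 13, the library with the highest brain level. Leaving out brain 13 also lowered the brain mean to 2.70 CPM and raised liver over brain to 10.58 on the log2 scale. Without scaling, the log2 fold change was 8.47 for liver over brain, 9.69 for liver over skin and 1.22 for brain over skin, the last of which passed the test (edgeR, adjusted p = 0.0185).

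The plasma iron carrier tfa was the most counted of the 4 entries. Liver 10, 11, 13, 14 and 15 had 40068, 49503, 39239, 45376 and 17589 CPM. The brain libraries with the same numbers had 858, 1531, 2226, 1577 and 968 CPM, and skin 5, 6, 7, 13 and 14 had 16.9, 7.26, 20.5, 17.8 and 38.7 CPM. The 3 tissues did not overlap, and liver stood above brain and brain above skin in every library. Liver 15 had less than the other 4 livers, and skin 14 more than the other 4 skins. This 1 entry took 2.23% ± 0.601 of all counts in liver, 0.241% ± 0.0928 in brain and 0.00213% ± 0.00145 in skin (SD, n = 5).

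Liver averaged 38355 ± 12334 CPM of tfa and brain 1432 ± 549 CPM (SD, n = 5), which gave a log2 fold change of 4.74 ± 0.46 (edgeR, adjusted p = 1.07e-07). Skin averaged 20.2 ± 11.5 CPM, so that liver exceeded skin by 10.89 ± 0.60 on the log2 scale (edgeR, adjusted p = 2.81e-10) and brain exceeded skin by 6.14 ± 0.50 (edgeR, adjusted p = 1.19e-08). Among the entries of brain libraries tfa stood high. In RPKM its brain level was 396 ± 153, and tfa ranked between 78 and 220 among the catalogue entries of each brain library, compared with 7084 to 12732 in skin libraries. Without scaling, the log2 fold change of tfa for liver over brain was 3.21, for liver over skin 10.03 and for brain over skin 6.82.

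The ferroxidase cp had the same order of tissues as tfa. Liver 10, 11, 13, 14 and 15 had 10645, 10675, 6816, 7437 and 5845 CPM. The brain libraries with the same numbers had 144, 248, 381, 283 and 199 CPM, and skin 5, 6, 7, 13 and 14 had 7.89, 3.52, 7.86, 6.05 and 8.39 CPM. Again no library of 1 tissue overlapped another tissue. The brain libraries stood in the same order for cp as for tfa, with brain 10 lowest, then 15, 11 and 14, and brain 13 highest.

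Liver averaged 8284 ± 2243 CPM of cp and brain 251 ± 89.7 CPM (SD, n = 5), which differed by 5.04 ± 0.35 on the log2 scale (edgeR, adjusted p = 1.35e-09). Skin averaged 6.74 ± 2.01 CPM, and the log2 fold changes were 10.26 ± 0.43 for liver over skin (edgeR, adjusted p = 2.38e-11) and 5.22 ± 0.35 for brain over skin (edgeR, adjusted p = 1.28e-09). In brain, cp stood at 100.2 ± 36.0 RPKM and ranked between 370 and 1115 among the catalogue entries. Without scaling, its log2 fold change was 3.53 for liver over brain, 9.45 for liver over skin and 5.93 for brain over skin.

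The entry paired with the zebrafish identifier of rbp4, the gene of a vitamin A carrier, was low in liver. Liver 10, 11, 13, 14 and 15 had 5.20, 11.5, 5.61, 8.03 and 4.73 CPM. The brain libraries with the same numbers had 1.98, 18.9, 20.4, 21.5 and 0.858 CPM, and skin 5, 6, 7, 13 and 14 had 2.45, 2.08, 3.17, 3.84 and 3.21 CPM. Brain 11, 13 and 14 were above every liver and skin library, and brain 10 and 15 were below every one. Brain 10 was within counting error of skin 5 and 6, whose 95% exact Poisson intervals were 1.79 to 3.28 and 1.48 to 2.85 CPM. Liver and skin did not overlap on this scale, with the lowest liver at 4.73 CPM and the highest skin at 3.84 CPM. Without scaling they did overlap, since liver 10, 13 and 15 had 2.91, 3.06 and 3.43 CPM and skin 13 and 14 had 3.51 and 3.77 CPM. Brain 10 then had 3.25 CPM, within the range of both other tissues, while brain 15, at 1.38 CPM, stayed below every liver and skin library. Counting error was small beside the distance between the brain libraries: the 32 counts of brain 15 gave a 95% exact Poisson interval of 0.587 to 1.21 CPM and the 100 counts of brain 10 one of 1.61 to 2.40 CPM, while brain 11, from 633 counts, had 17.4 to 20.4 CPM.

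Liver averaged 7.01 ± 2.79 CPM of rbp4 and brain 12.7 ± 10.4 CPM (SD, n = 5), and the log2 fold change of -0.86 ± 0.63 for liver over brain did not pass the test (edgeR, adjusted p = 0.230). Without scaling it was -2.39 (edgeR, adjusted p = 0.00296) around a median of -1.49 over all entries, a distance of -0.90 from that median. For liver over skin, with 2.95 ± 0.690 CPM in skin, it was 1.24 ± 0.65 and did not pass either (edgeR, adjusted p = 0.107). This comparison used a spread estimated from all 15 libraries, and with liver and skin alone in the fit the log2 fold change of 1.28 passed (edgeR, adjusted p = 0.00293). It also passed when brain 15 or brain 10 was left out (1.34 in each case; edgeR, adjusted p = 0.0226 and 0.0481), although neither belongs to the comparison. It shrank to 0.47 without scaling (edgeR, adjusted p = 0.535) and to 0.31 and 0.43 with limma on log2(RPKM + 1) and log2(RPKM + 0.1) (adjusted p = 0.679 and 0.620).

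For brain over skin, rbp4 passed the test at 2.10 ± 0.65 on the log2 scale (edgeR, adjusted p = 0.00921), and without scaling at 2.86 (edgeR, adjusted p = 0.00105). The tissues nevertheless overlapped. Of 5 brain libraries, 3 were above all skin libraries and, on the scaled level, 2 were below all of them (without scaling brain 15 alone). Brain 10 was within counting error of the lowest skin libraries. The low libraries, brain 10 and 15, were also the lowest 2 brain libraries for tfa and cp. For fabp10a brain 15 was lowest, but brain 10, at 4.01 CPM, was below brain 13 only. Brain 10 and 15 each had 17 entries at least 4-fold above the mean of the other brain libraries, where brain 11, 13 and 14 had 0 to 9. Brain 14, the highest for rbp4, had 31 entries at least 4-fold below the mean of the others, where the other brains had 0 to 5, and the part of these differences in the rbp4 result was not tested. In order of mean level, rbp4 was highest in brain, then liver, then skin. In the test on all 15 libraries, brain and liver, and liver and skin, did not pass. The spread in that test was estimated from all 3 tissues, so for liver and skin it was not their own spread alone. The reference gene table of assembly NfurGRZ-RIMD1 lists a gene with the symbol rbp4 and another with the symbol rbp4l. None of its identifiers matched the catalogue, so the entry called rbp4 here cannot be tied to either gene. How reads of such similar genes were divided cannot be told, and the rbp4 values are uncertain in both respects.

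**Figure D2:**
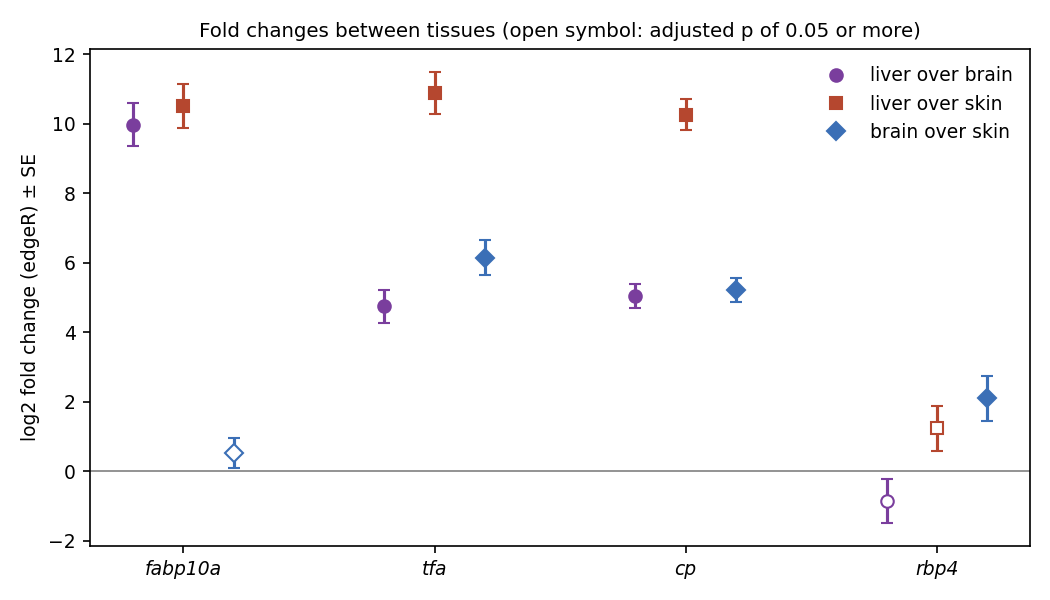
log2 fold change of each entry for liver over brain, liver over skin and brain over skin, from edgeR's fit of all 15 libraries, with bars of 1 SE; open symbols did not pass an adjusted p of 0.05. Liver over skin lies between 10.26 and 10.89 for fabp10a, cp and tfa, while liver over brain is 9.97 for fabp10a and 4.74 and 5.04 for tfa and cp.

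For liver over brain, 3 of the 4 entries (fabp10a, tfa and cp) were called higher in liver, against a background of 36% of all 16611 entries tested. Those 3 also showed no overlap between liver and brain with liver higher, which 28.2% of entries tested did. The median log2 fold change was 4.89 over the 4 entries and -0.01 over all entries tested. For liver over skin, the same 3 entries were called higher in liver, against 29.3% of all entries, and all 4 showed no overlap with liver higher, against 18.6%. Without scaling that number was 3, because rbp4 then overlapped. The median log2 fold change was 10.38 over the 4 entries and -0.03 over all. Among the entries tested, tfa had rank 19 by log2 fold change for liver over skin, fabp10a rank 36 and cp rank 54. For liver over brain the ranks were 91 for fabp10a, 566 for cp and 625 for tfa.

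For brain over skin, tfa, cp and rbp4 were called higher in brain, against a background of 34.7% of entries tested. Of these, tfa and cp showed no overlap between the tissues, as 31.8% of entries did with brain higher. The median log2 fold change of the 4 entries was 3.66, and 0.03 over all entries tested. The comparisons share libraries: both liver comparisons use the same 5 livers, and each brain or skin library enters a pair of comparisons.

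Expressed as a percentage of the mean liver level on the CPM scale, skin held similar small amounts of the 3 liver-rich entries. Skin libraries stood at 0.0367% to 0.119% of the liver mean for fabp10a, 0.0189% to 0.101% for tfa and 0.0426% to 0.101% for cp. These skin ranges overlapped each other, and skin 14 was the highest of the 5 skin libraries for all 3. Brain was different, with 0.0368% to 0.230% for fabp10a, 2.24% to 5.80% for tfa and 1.74% to 4.60% for cp. No brain library had as high a percentage for fabp10a as the lowest brain library had for tfa or cp. These percentages depend on the scaling of liver against the other tissues. Without scaling, brain stood at 0.1004% to 0.636% for fabp10a, 6.33% to 16.3% for tfa and 4.87% to 12.8% for cp, and skin at 0.0568% to 0.237%, 0.0293% to 0.204% and 0.0651% to 0.203%, so fabp10a in brain stayed below tfa and cp. For rbp4 with scaling, brain libraries stood at 12.2% to 306% of the liver mean and skin libraries at 29.7% to 54.7%. Without scaling these ranges were 33.5% to 929% in brain and 45.4% to 91.5% in skin.

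**Figure D3:**
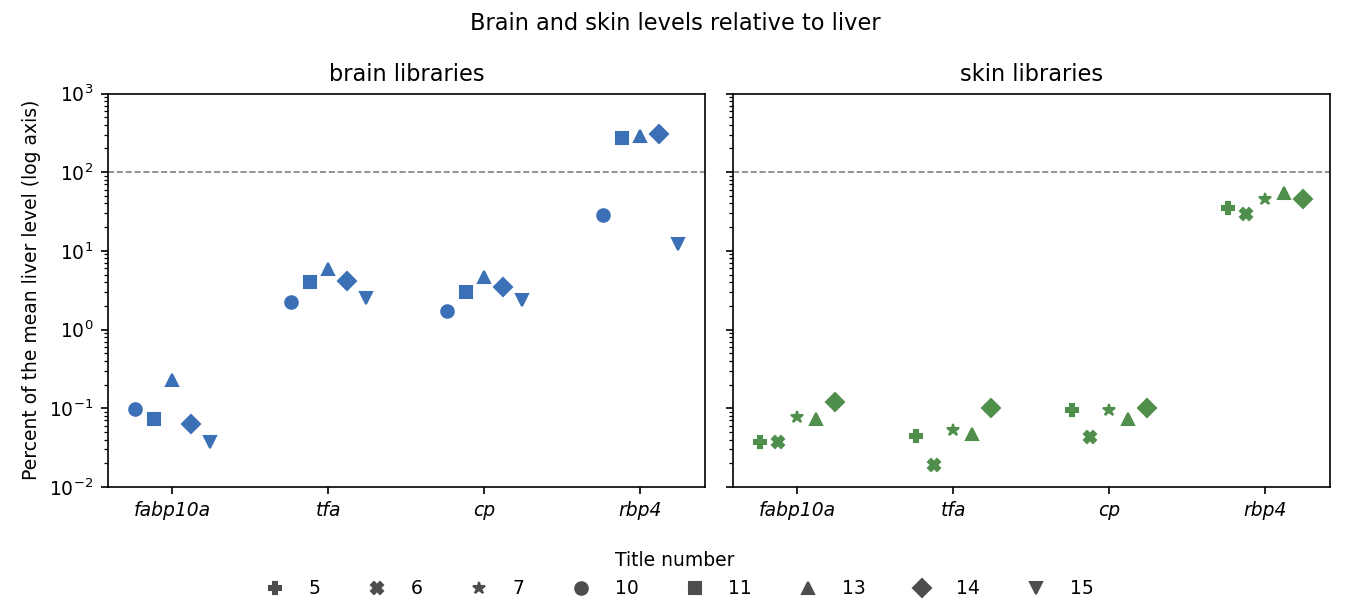
Level of each entry in brain (left) and skin (right) libraries as a percentage of its mean TMM-scaled CPM over the 5 livers, on a log axis; the dashed line is the liver mean. In skin fabp10a, tfa and cp all lie between 0.0189% and 0.119%, whereas in brain tfa and cp lie between 1.74% and 5.80% and fabp10a at or below 0.230%; without scaling the brain values of tfa and cp are 4.87% to 16.3%.

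The proportions of the transcripts within a library, as ratios of RPKM, need no scaling between libraries, but their size depends on the entry lengths. The ratio of tfa to fabp10a had a median of 1.02 in liver (range 0.544 to 1.29), 51.9 in brain (21.8 to 64.6) and 0.661 in skin (0.478 to 1.13). For cp to fabp10a the median was 0.276 in liver (0.187 to 0.493), 12.1 in brain (5.29 to 19.2) and 0.335 in skin (0.250 to 0.762). Liver and skin overlapped in both ratios, and brain lay above them in every library. For tfa to cp, liver overlapped both brain and skin, with a median of 3.22 in liver (2.09 to 4.23), 4.05 in brain (3.37 to 4.28) and 1.81 in skin (1.43 to 3.20). The rbp4 entry broke the likeness of liver and skin: its ratio to fabp10a ran from 0.000440 to 0.000972 in liver, from 0.207 to 3.42 in brain and from 0.273 to 0.676 in skin. These ratios are a description, and the source of the fabp10a, tfa and cp reads in skin was not tested.

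**Figure D4:**
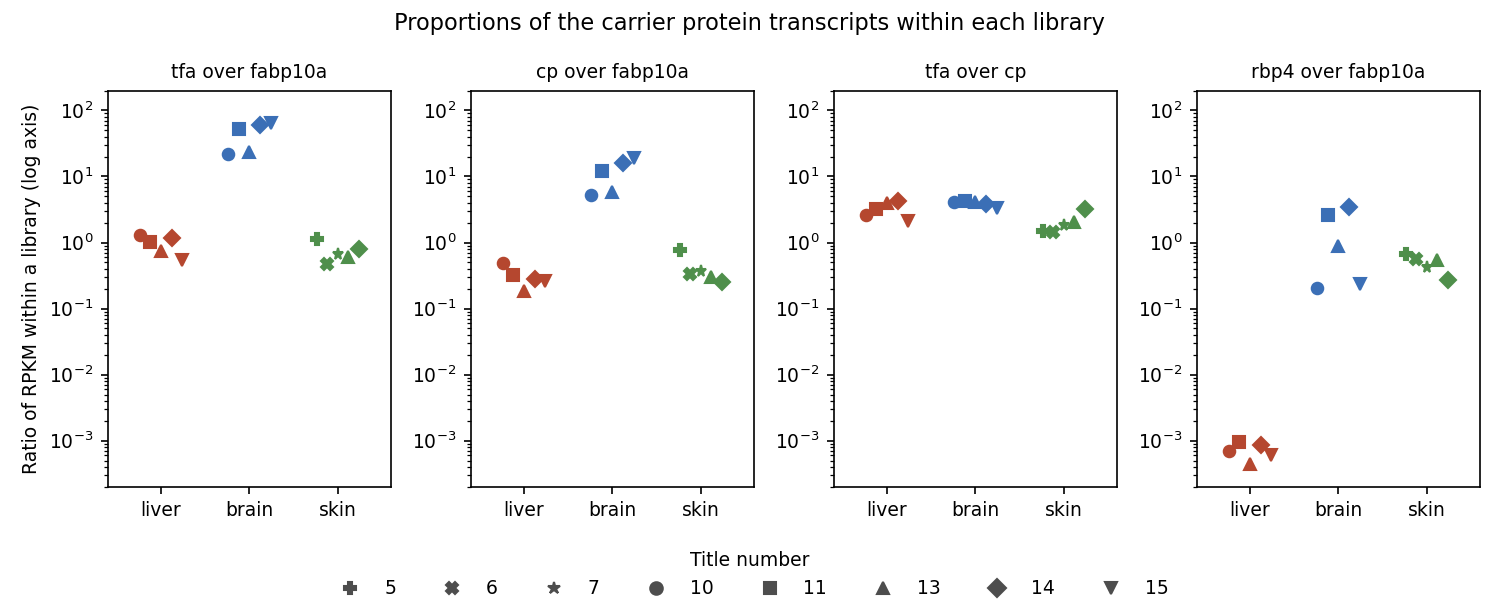
Ratios of RPKM between pairs of entries within each library, on a log axis, for liver, brain and skin (5 libraries each; symbols give the title number). For tfa over fabp10a and cp over fabp10a liver and skin overlap and brain lies above both, while rbp4 over fabp10a is at most 0.000972 in liver and at least 0.207 elsewhere.

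The 4 entries differed in how evenly they were expressed among the 5 libraries of a tissue. In liver their coefficients of variation on the CPM scale were 23.5% for fabp10a, 27.1% for cp, 32.2% for tfa and 39.9% for rbp4, beside a median of 27.6% over entries tested with a mean of at least 1 CPM there. In brain they were 75.8% for fabp10a, 38.3% for tfa, 35.7% for cp and 81.5% for rbp4, beside a median of 15.1%. Of the brain entries at that level, 99.4% varied less than fabp10a, 94.8% less than tfa, 93.6% less than cp and 99.5% less than rbp4. In skin the values were 49.7% for fabp10a, 56.7% for tfa, 29.8% for cp and 23.4% for rbp4, beside a median of 20.5%. Of the skin entries with a mean of at least 1 CPM, 90.4% varied less than fabp10a, 92.8% less than tfa, 72.9% less than cp and 58.5% less than rbp4. These shares are over entries of any mean from 1 CPM up, not over entries of like level.

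**Figure D5:**
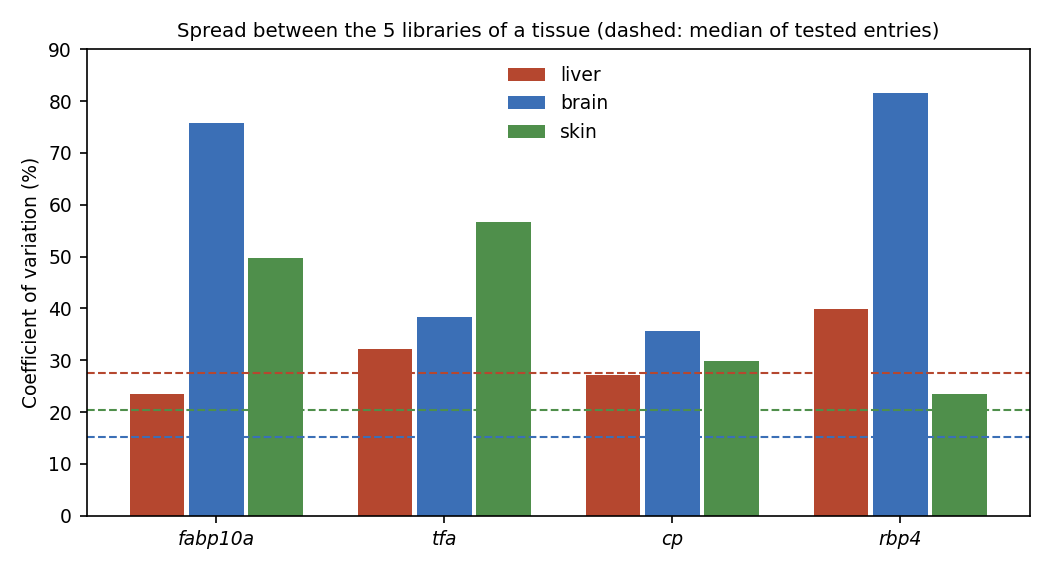
Coefficient of variation (SD over mean, in percent) of each entry between the 5 libraries of liver, brain and skin; dashed lines give the median over tested entries with at least 1 CPM on average in the tissue of that colour. In brain all 4 bars stand above the dashed line at 15.1%, with rbp4 at 81.5%, while in liver fabp10a and cp lie below the line at 27.6%.

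Likeness of pattern was measured as the root mean square difference between centred profiles of log2(CPM + 1) over the 15 libraries, so that a smaller value means a closer pattern. The closest of the 4 entries to each other were tfa and cp, at 0.59, and no other entry was closer to cp, the next standing at 0.60. The entry closest to tfa stood at 0.55, and the one closest to fabp10a at 0.33. From rbp4 the other 3 entries stood at 3.81 to 4.61. The entries nearest to the mean profile of the 4 were Nofu_gene_3_0001791 (ENSDARG00000062585), at 0.62, and Nofu_gene_3_0014071 (ENSDARG00000010018), at 0.66. That mean averages rbp4 with entries of a far different pattern. Nearness to it is therefore not nearness to any single carrier entry, and neither of them was the nearest to fabp10a, tfa, cp or rbp4. Nofu_gene_3_0001791 had 3344 ± 1433 CPM in liver, 43.8 ± 19.1 CPM in brain and 6.22 ± 1.24 CPM in skin (SD, n = 5). The deposited tables do not pair these identifiers with gene names.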

How the data were processed

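Libraries were prepared from total RNA with the TruSeq RNA kit of Illumina, as the labels' protocols state. Tools listed in the submitters' processing notes, with no role for each, are featureCounts 1.4.3-p1, TopHat2 2.0.6, CASAVA 1.8.2 and Bowtie. Not given in the sources used here are the genome build, the annotation, strandedness and the handling of reads that match several genes.

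The authors deposited raw read counts per catalogue entry, with 1 column per sample, and RPKM values computed from them. Entry lengths implied by counts and RPKM (620 bases for fabp10a, 6077 for tfa, 4214 for cp and 1475 for rbp4) reproduced 100% of RPKM values above 0, within a relative tolerance of 1e-06. The RPKM sheet has 60 further columns of samples that were not used, and the genome tables were not used because their identifiers cannot be tied to the 4 entries.

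Counts of all 15 libraries were fitted with edgeR 4.0.16 in R 4.3.3 (filterByExpr with a count minimum of 10, which left 16611 entries; TMM; quasi-likelihood test, 1 term per tissue), with Benjamini-Hochberg adjustment over all entries tested and a threshold of 0.05. The SE of a log2 fold change was taken as its absolute value over the root of F. Every entry carrying a chosen identifier is named, with the 2 entries nearest to their mean profile. The procedure was run on simulated counts in which few entries differed between tissues. That run could not test the scaling under the large differences in composition seen here. Alternatives used DESeq2 1.42.0, limma 3.58.1 on log2(RPKM + 1) and log2(RPKM + 0.1), other scalings, filters, entries and libraries, and a replicate block. The members and gene lists were chosen with earlier results of these data known. Lists for iron, copper, retinoid, thyroid hormone, fatty acid and bile acid handling and for cell type markers were written as symbols. They could not be matched to identifiers (0 matches to 38438 reference genes), so none was counted and the tissue labels were not checked with markers.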

Additional observations from a re-analysis of the deposited data

How the results depend on the processing

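Each of the 12 log2 fold changes was recomputed under 26 alternatives. Of these 312 values, 303 kept their direction and their side of the threshold, 8 gained a call, 1 lost it and 0 changed sign. The 9 that moved across the threshold were of rbp4 (any comparison) or of fabp10a for brain over skin. The number of entries called among the 4, in either direction, stayed at 3 to 4 for liver over brain and for liver over skin. For brain over skin it ran from 2 to 4. Leaving out single libraries gave 3 for liver over brain, 3 to 4 for liver over skin and 3 for brain over skin. Where liver over brain reached 4, the added call was rbp4, lower in liver. Where liver over skin reached 4, the added call was rbp4, higher in liver. On log2(RPKM + 1) with limma, rbp4 for liver over brain was -1.41 (adjusted p = 0.0409) and fabp10a for brain over skin 0.98 (adjusted p = 0.0236), and on log2(RPKM + 0.1) they were -1.51 (0.0618) and 1.13 (0.0193). Neither RPKM nor unscaled counts carry a correction for composition, and the cause of these changes was not tested. With TMM, 5981 of 12265 calls for liver over brain were higher in liver, without scaling 2189 of 13812. For liver over skin these were 4864 of 10434 and 1913 of 11132, and for brain over skin 5758 of 11617 and 9022 of 12821 higher in brain. In a fit with the title number as a replicate block, rbp4 for brain over skin lost its call, at 2.03 (edgeR, adjusted p = 0.0558). Calls over all entries for liver over skin numbered 7991 in that fit. The numbers 5, 6 and 7 occur only in skin, so in that fit the fold changes against skin rested on skin 13 and 14. Same-numbered liver and brain libraries correlated at 0.081 to 0.175 in their deviations from tissue means, not above 0.1 in every pair. No label says what the numbers mark, and they were not taken to pair the samples. This is no result against pairing, since 4 of the 5 livers correlated best with the brain of their own number. The 2 numbers that skin shares, 13 and 14, gave 0.112 and 0.068 for liver and skin and 0.054 and 0.314 for brain and skin. At 28 to 100 counts in the lowest libraries, depth limits the precision of fabp10a and rbp4 in brain and skin.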

Other observations

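Liver and brain libraries with the same title number were set side by side for the 4 entries, without taking the number to mark a fish. The log2 ratio of liver over brain was 9.14 to 11.08 for fabp10a, 4.14 to 5.55 for tfa and 4.16 to 6.21 for cp, with liver higher in all 5. For rbp4 it was 2.46 for number 15 and 1.395 for number 10, and -0.72, -1.42 and -1.86 for numbers 11, 14 and 13. The sign for rbp4 thus differed between libraries of the same tissues.

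Together the 4 entries took 2.96% ± 0.656 of the counts in liver (range 1.94% to 3.62%), 0.286% ± 0.110 in brain and 0.00342% ± 0.00191 in skin (SD, n = 5). Of 12 groups of 5 libraries (4 entries in 3 tissues) examined by Dixon's rule, 0 passed the critical value of 0.71. With 5 libraries, a group under that value can still hold a library far from the rest. The split of rbp4 among brain libraries, with 2 low and 3 high values, is of a kind that this rule does not detect.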
